A study of Mus musculus with 2 samples.

Results

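Fam178b, Rad54l, Bfsp2, Cyb5a and Fam174b are 5 of the 14959 genes counted in single cells of the mouse melanoma lines B16F10 and B16F0. They were chosen by the ratio of their summed counts in B16F10 and B16F0. With a minimum of 50 CPM in the line with more, they ranked 1, 10, 6, 8 and 12 from the lowest B16F10/B16F0 ratio. Predicted genes, ribosomal protein genes and mitochondrially encoded genes were left out of that ranking. CPM is here the number of unique molecular identifiers (UMIs, counted transcript molecules) of a gene per 1000000 UMIs of the group of cells. The difference between the lines over all cells is therefore how the genes were picked and is given as a description. The last gene taken, Fam174b, had a log2 ratio of -1.77, and the next gene in rank, the tyrosinase gene Tyr, had -1.74. The genes at ranks 2, 3, 4, 5, 7 and 9, with log2 ratios between -2.90 and -1.93, were not among the 5. Mbp, the myelin basic protein gene, ranked 11 at -1.91 and was not among them either.

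B16F10 is labelled as a subclone with high metastatic capacity, and B16F0 as the parental line of the same B16 mouse melanoma. Each line was represented by 1 10x Chromium 3′ library (chemistry v2), with no treatment named in the labels, so cells were not replicates of a line and no difference below has a replicate check or a p-value. Intervals are 95% intervals of counting error only.

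The 5 genes do not form 1 pathway. Rad54l encodes a DNA translocase that works in homologous recombination, the repair of double-strand breaks from an intact copy, which is used mainly after DNA has been replicated. Fam178b is a relative of Slf2, a factor known in human cells for bringing the SMC5/6 complex to damaged DNA. Cyb5a encodes microsomal cytochrome b5, an electron carrier for fatty acid desaturation and for cytochrome P450 enzymes, and Bfsp2 encodes phakinin, an intermediate filament protein of the beaded filament of the eye lens. No role is given here for Fam174b.

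The B16F10 library held 1574 cells with a median of 34950.5 UMIs per cell, and the B16F0 library 2582 cells with a median of 35503.5. Shares of cells with a UMI were taken after each cell was thinned at random to 19718 UMIs, which left out 72 shallower B16F10 cells and 259 shallower B16F0 cells. In all, 6 cell barcodes occurred in both libraries; without those cells the line ratios given below were -3.75 (Fam178b), -1.93 (Rad54l), -2.17 (Bfsp2), -1.94 (Cyb5a) and -1.78 (Fam174b). All 7 melanocyte lineage markers were measured, with a summed level of 7733 CPM in B16F10 and 7852 CPM in B16F0. Single markers differed both ways between the lines. The B16F10/B16F0 log2 ratios were -1.74 for Tyr, -0.77 for Mlana and -0.76 for Pmel. They were 0.86 for Mitf, 0.69 for Tyrp1, 0.40 for Sox10 and 0.34 for Dct. Of the marker lists for other cells, fibroblast markers (4 of 7 measured) summed to 6.82 CPM in B16F10 and 5.70 CPM in B16F0, and macrophage markers (2 of 6) to 3.93 and 6.26 CPM. Endothelial markers (2 of 4) summed to 63.3 and 66.3 CPM. Nearly all of that was Egfl7 (63.0 and 66.2 CPM), with Pecam1 at 0.37 and 0.16 CPM. None of the 4 T and NK cell and 4 keratinocyte markers was among the 14959 genes counted. Of 6 lens genes 1 was measured, Cryab, which is also expressed outside the lens, at 882 CPM in B16F10 and 1027 CPM in B16F0. No group of cells known to lack the 5 transcripts was identified, so the background from free RNA was not measured.

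On GRCm38, the assembly behind mm10, Fam178b lies on the minus strand at chr1:36562692-36683183, Rad54l on the minus strand at chr4:116094264-116123690, Bfsp2 on the minus strand at chr9:103424924-103480420 and Fam174b on the plus strand at chr7:73740302-73776919. Promoter sequences were matched by symbol in a RefSeq table (GRCm38.p6) for 4 of the 5 genes, all but Cyb5a. The windows of Fam178b (chr1:36683134-36683433, minus strand) and Rad54l (chr4:116123641-116123940, minus strand) are shown because the transcripts of these genes varied together between groups of B16F0 cells. Each runs 5′ to 3′ over 250 bases before and 50 after the annotated start, and capitals mark every match, on either strand, to the E-box CACGTG, the M-box core CATGTG, the AP-1 motif TGANTCA, the E2F motif TTTNGCGC, the CCAAT box or the SOX motif ACAAAG.
Fam178b: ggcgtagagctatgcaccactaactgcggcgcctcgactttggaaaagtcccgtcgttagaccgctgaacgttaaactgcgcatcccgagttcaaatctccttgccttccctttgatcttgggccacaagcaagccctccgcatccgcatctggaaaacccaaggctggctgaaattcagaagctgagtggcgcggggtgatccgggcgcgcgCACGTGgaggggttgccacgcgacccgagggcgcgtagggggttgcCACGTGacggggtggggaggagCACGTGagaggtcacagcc
Rad54l: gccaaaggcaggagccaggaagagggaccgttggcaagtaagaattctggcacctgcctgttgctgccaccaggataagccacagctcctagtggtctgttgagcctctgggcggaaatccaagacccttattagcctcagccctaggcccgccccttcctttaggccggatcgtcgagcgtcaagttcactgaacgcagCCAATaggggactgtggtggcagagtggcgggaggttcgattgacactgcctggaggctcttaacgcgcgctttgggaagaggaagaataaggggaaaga
The Fam178b window shown held the E-box at 3 positions: 37 bases before the start (-37), and at bases 10 and 32 counted with the start as base 1. Over 32817 RefSeq promoter windows of the same length, 7.15% held it at least once and 29 (0.0884%) held it 3 or more times. The 29 include the window shown and a Fam178b window that overlaps it. The E-box contains a CpG (C followed by G), and the window shown had 27 CpGs and 61.7% GC. The medians over all windows were 7 CpGs and 52.7% GC, and windows of like content were not compared. The table holds 3 Fam178b starts, of which one overlaps the window shown and holds the same E-boxes and another lies apart, with the window chr1:36593283-36593582, which had no E-box but 3 matches to the CCAAT box and 1 to the SOX motif. The Rad54l window held a single match, CCAAT at -50, a sequence present in 37.4% of all windows. The AP-1 motif (7.81% of windows) was matched at -132 of Bfsp2, beside a CCAAT box at -38, while the M-box core (14.2%), the E2F motif (1.38%) and the SOX motif (18.7%) were in neither printed window. The Fam174b window held none of the 6 motifs. These letters say nothing on their own about which factor binds.

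All 5 genes were lower in B16F10, and UMIs of all 5 were still counted there; how many of those came from free RNA was not measured. Fam178b had 10.9 CPM (10.1 to 11.8) in B16F10, against 147 CPM (144 to 149) in B16F0, a log2 ratio of -3.75 (-3.86 to -3.63). Bfsp2 had 22.3 CPM (21.1 to 23.6) in B16F10, against 101 CPM (98.5 to 103) in B16F0, a log2 ratio of -2.17. Cyb5a had 285 CPM (280.3 to 289) in B16F10, against 1089.8 CPM (1083.2 to 1096.5) in B16F0, a log2 ratio of -1.94. No 2 of these intervals overlapped between the lines. Rad54l had 17.2 CPM (16.2 to 18.3) in B16F10, against 65.4 CPM (63.8 to 67.1) in B16F0, a log2 ratio of -1.93. Fam174b had 23.4 CPM (22.2 to 24.7) in B16F10, against 80.1 CPM (78.3 to 82.0) in B16F0, a log2 ratio of -1.77. All 5 stood at least 2-fold lower, as did 1.6% of the 5296 genes with 20 CPM or more in either line, and the median log2 ratio of those genes was 0.12; since this ratio chose the 5 genes, nothing is read from that count.

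The lines also differed in how many cells held a molecule. After thinning, Fam178b was seen in 15.4% of B16F10 cells and 83.7% of B16F0 cells (24.5% and 90.4% unthinned), Bfsp2 in 28.7% and 80.3% (40.0% and 89.2%), and Fam174b in 29.0% and 72.1% (39.8% and 85.9%). Rad54l was seen in 28.1% of thinned B16F10 cells and 54.3% of thinned B16F0 cells (42.4% and 63.7% unthinned). Cyb5a differed in molecules per cell and hardly in the share of cells: it was seen in 96.4% of thinned B16F10 cells and 99.957% of thinned B16F0 cells (98.7% and 99.961% unthinned), at a mean of 5.44 UMIs per cell in B16F10 and 21.4 in B16F0.

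**Figure D1:**
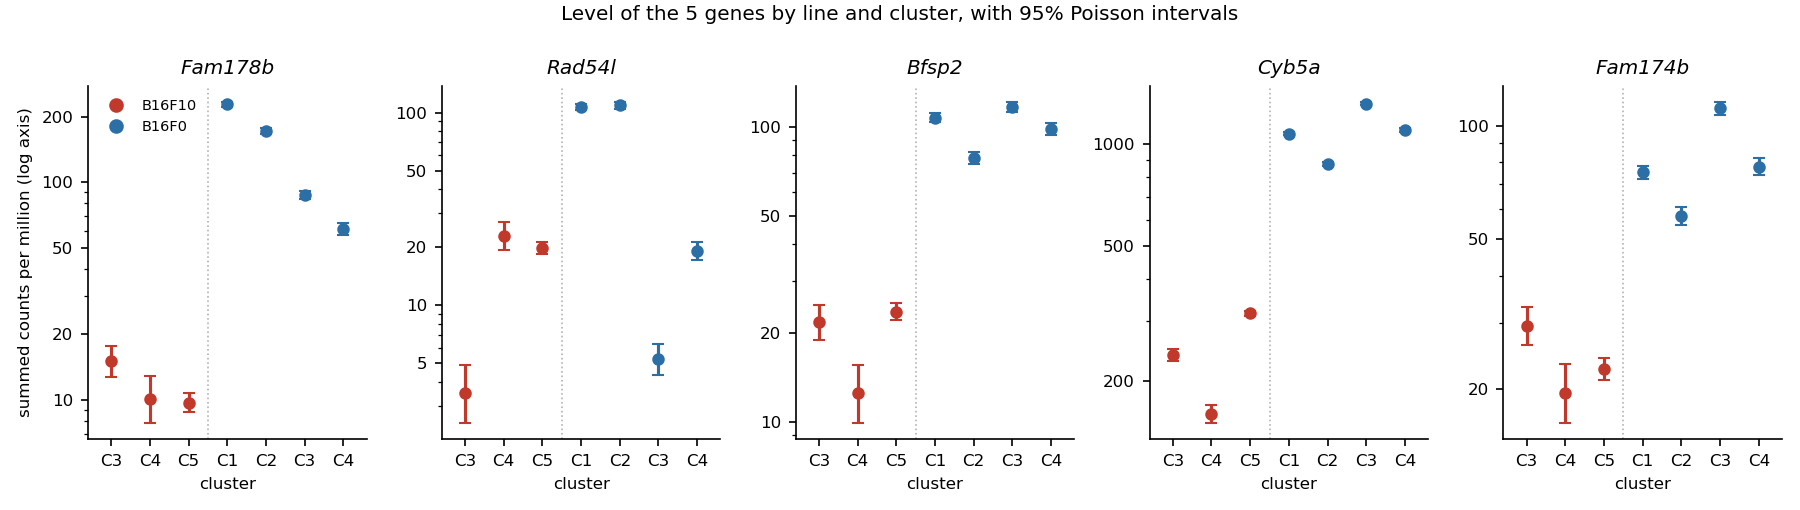
Summed expression of each of the 5 genes, in CPM on a log axis, in the deposited clusters with 50 or more cells of a line, B16F10 (C3, C4, C5) left of B16F0 (C1 to C4); bars on the points are 95% Poisson intervals. Rad54l is at 3.51 CPM in B16F10 C3 and 5.26 CPM in B16F0 C3, but at 108 and 109 CPM in B16F0 C1 and C2, whereas each of the other 4 genes is higher in all 4 B16F0 clusters than in any B16F10 cluster.

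The authors' table places each cell in 1 of 5 clusters (C1 to C5), in a cycling or non-cycling class and in a trajectory state. In B16F10, C3 held 306 cells (91.5% non-cycling), C4 212 cells (all cycling) and C5 1045 cells (94.4% cycling). In B16F0, C1 held 816 cells (73.2% non-cycling), C2 644 cells (99.5% cycling), C3 640 cells (88.9% non-cycling) and C4 469 cells (99.6% cycling). C1 and C2 were thus nearly all B16F0, C5 nearly all B16F10, and C3 and C4 were mixed. No source used here says how the clusters were made, and any clustering on all genes also used these 5, so differences between clusters are descriptions.

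Rad54l split the B16F0 line. In B16F10 it had 3.51 CPM (2.44 to 4.88) in C3, 23.0 CPM (19.4 to 27.0) in C4 and 19.7 CPM (18.4 to 21.2) in C5. In B16F0 it had 108 CPM (104 to 111) in C1, 109 CPM (105 to 113) in C2, 5.26 CPM (4.37 to 6.29) in C3 and 19.1 CPM (17.2 to 21.2) in C4. The levels fell into 3 tiers whose intervals did not overlap: B16F0 C1 and C2 at the top, then C4 of both lines with B16F10 C5, then C3 of both lines. C1 and C2 held 56.5% of the B16F0 cells and 55.7% of all B16F0 UMIs, but 92.1% of its Rad54l UMIs (5680 of 6166). After thinning, Rad54l was seen in 6.03% of C3, 34.7% of C4 and 33.3% of C5 cells in B16F10. It was seen in 82.7% of C1, 85.2% of C2, 7.61% of C3 and 29.95% of C4 cells in B16F0. Cells with 4 or more Rad54l UMIs made up 18.2% of C1 and 20% of C2 in B16F0, and at most 0.518% of any of the other 5 groups.

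Within B16F0, C1 stood above C3 for Rad54l by a log2 ratio of 4.35 (4.09 to 4.63), the highest of 4837 genes with 20 CPM or more. Among cycling cells, C2 stood above C4 by 2.51 (2.35 to 2.68), rank 4 of 5185. Fam178b stood above in the same pairs, by 1.38 (1.31 to 1.46; rank 22) for C1 over C3 and by 1.497 (rank 13) for C2 over C4. These 2 of the 5 genes were at least 1.5-fold higher in C1 than C3, as were 2.56% of all genes, and the same 2 were at least 1.5-fold higher in C2 than C4, as were 1.93%. The other 3 genes leaned the opposite way: Bfsp2 had log2 ratios of -0.12 (C1 over C3) and -0.33 (C2 over C4), Cyb5a -0.29 and -0.33, and Fam174b -0.56 and -0.43. None of them was 1.5-fold lower, where 5.42% (C1 over C3) and 5% (C2 over C4) of all genes were.

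The Rad54l contrast between C1 and C3 was present in non-cycling and in cycling cells. In non-cycling B16F0 cells it had 112 CPM in C1 (597 cells) and 4.47 CPM in C3 (569 cells), a log2 ratio of 4.64 that again ranked 1, of 4819 genes. In the cycling cells of the same clusters it had 96.8 CPM in C1 (219 cells) and 10.8 CPM in C3 (71 cells), a ratio of 3.16. Rad54l and Fam178b were the 2 of 5 genes past 1.5-fold in both, beside 2.84% of all genes in non-cycling and 2.1% in cycling cells.

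Rad54l stood further apart between cycling and non-cycling cells in B16F10 than in B16F0, a difference that was not tested. In B16F10 it had 20.8 CPM in cycling and 2.78 CPM in non-cycling cells, a log2 ratio of 2.90 (2.39 to 3.47). In B16F0 it had 70.3 CPM in cycling and 59.1 CPM in non-cycling cells, a ratio of 0.25 (0.18 to 0.33). It was the 1 gene of the 5 that was 1.5-fold higher in cycling B16F10 cells, beside 13% of all genes, and none of the 5 was in B16F0, beside 9.35%. The higher level in non-cycling B16F0 cells lay in C1: between the mixed clusters of B16F0, cycling C4 cells had 19.1 CPM and non-cycling C3 cells 4.47 CPM, while in B16F10 cycling C4 cells had 23.0 CPM and non-cycling C3 cells 2.10 CPM. Within cycling cells, those with the larger S score had 25.9 CPM and those with the larger G2/M score 15.3 CPM in B16F10, a log2 ratio of 0.76 (1 of 5 genes past 1.5-fold, 1.68% of all genes). In B16F0 the S over G2/M ratio of Rad54l was 0.33, and 0 of 5 genes passed 1.5-fold, beside 2.67% of all genes.

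**Figure D2:**
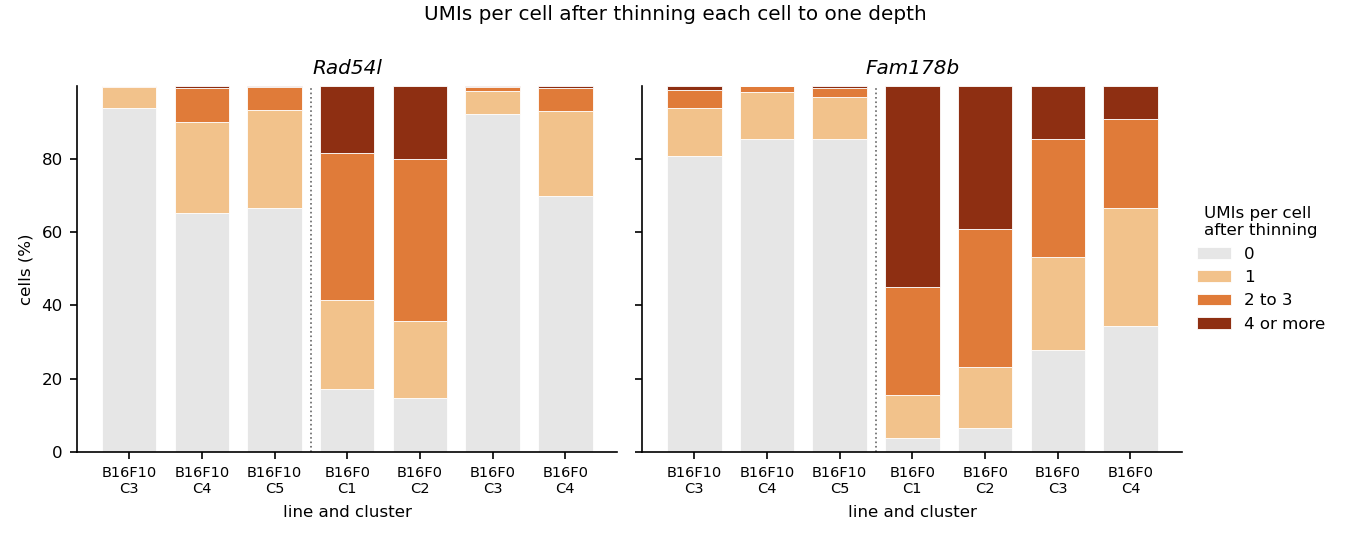
Share of cells, in percent, with 0, 1, 2 to 3 and 4 or more UMIs of Rad54l (left) and Fam178b (right) after thinning to 19718 UMIs per cell, for B16F10 C3, C4 and C5 and then B16F0 C1 to C4. Rad54l is seen in 6.03% of B16F10 C3 cells and 7.61% of B16F0 C3 cells, but in 82.7% of C1 and 85.2% of C2 cells of B16F0, and Fam178b has 4 or more UMIs in 55.1% of B16F0 C1 cells.

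Other genes of homologous recombination had smaller ratios than Rad54l between the B16F0 clusters. In a list of recombination genes without Rad54l, 14 had 10 CPM or more in C1 or C3; 3 were at least 1.5-fold higher in C1 (among them Mnd1 at 0.85 and Rpa2 at 0.59 on the log2 scale), 1 was lower (Brca1, -0.95), and the median was 0.27. Over all 6986 such genes 3.08% were higher and 5.47% lower, with a median of -0.02. Between C2 and C4, 0 of 27 recombination genes passed 1.5-fold either way, where 2.43% of all genes were higher and 5.46% lower, and the median was 0.09.
Between cycling and non-cycling cells, most of the list differed in both lines. In B16F10, 17 of 23 were at least 1.5-fold higher in cycling cells (13.2% of all genes) with a median log2 ratio of 1.71, and in B16F0, 19 of 25 were (9.89% of all genes) with a median of 1.37. The ratio of Rad54l was above the list's median in B16F10, at 2.90, and below it in B16F0, at 0.25.

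Lrrc41 lies on the opposite strand and overlaps the 3′ end of Rad54l. No source used here says whether reads were counted by strand, and reads of the shared stretch were not examined. Lrrc41 had 15.3 CPM in B16F10 and 11.2 CPM in B16F0, and within B16F0 it had 11.7 CPM in C1, 8.59 CPM in C2, 14.7 CPM in C3 and 9.58 CPM in C4, so it was not higher where Rad54l was. The antisense genes over Bfsp2 (5830418P13Rik) and Cyb5a (Gm16146) each had 0 UMIs in B16F10 and 4 UMIs in B16F0.

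Fam178b had the same order of C1 and C2 over C3 and C4 with smaller ratios, and a wide gap between the lines. In B16F10 it had 15.0 CPM (12.7 to 17.7) in C3, 10.2 CPM (7.84 to 12.9) in C4 and 9.71 CPM (8.77 to 10.7) in C5. In B16F0 it had 228 CPM in C1, 172 CPM in C2, 87.4 CPM in C3 and 61.0 CPM in C4. Among these clusters, the B16F0 levels were all above the B16F10 levels and their intervals did not overlap one another. The B16F10 C4 interval overlapped those of C3 and C5. Clusters with few cells of a line were left out. The 7 B16F10 cells in C1 had 56.3 CPM (32.2 to 91.5, on 16 UMIs), an interval that includes the levels of B16F0 C3 and C4. In thinned cells of B16F10, 4 or more UMIs were found in 1.06% of C3, 0.492% of C5 and 0 of 193 C4 cells, which allows a share of up to 1.55%. In B16F0 they were found in 55.1% of C1, 39.1% of C2, 14.6% of C3 and 8.96% of C4 cells. Unlike Rad54l, Fam178b was lower in cycling cells of both lines, by log2 ratios of -0.66 in B16F10 and -0.30 in B16F0.

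Bfsp2, Cyb5a and Fam174b had their highest B16F0 level in C3, where Rad54l was lowest. Cyb5a had 238 CPM in C3, 160.0 CPM in C4 and 317 CPM in C5 of B16F10. It had 1076.5 CPM in C1, 873 CPM in C2, 1319 CPM in C3 and 1099 CPM in C4 of B16F0, where the intervals of C1 and C4 overlapped. In B16F0 C2 was below C1 and C4 below C3, and in B16F10 the mostly cycling C5 was the highest and the cycling C4 the lowest.
Bfsp2 had 21.8 CPM in C3, 12.5 CPM in C4 and 23.7 CPM in C5 of B16F10, with overlapping intervals of C3 and C5. It had 107 CPM in C1, 78.5 CPM in C2, 117 CPM in C3 and 98.4 CPM in C4 of B16F0. Fam174b had 29.5 CPM in C3, 19.5 CPM in C4 and 22.6 CPM in C5 of B16F10, with overlapping intervals of C4 and C5. It had 75.2 CPM in C1, 57.7 CPM in C2, 111 CPM in C3 and 77.9 CPM in C4 of B16F0, with overlapping intervals of C1 and C4. Among the clusters given above, B16F0 C2, the lowest of its line for these 3 genes, was still above the highest B16F10 cluster. Clusters with few cells of a line were left out. The 7 B16F10 cells in C1 had 84.5 CPM of Bfsp2 (54.1 to 126, on 24 UMIs), an interval that includes the level of B16F0 C2. The 13 B16F0 cells in C5 had 70.6 CPM of Bfsp2 (48.0 to 100.2, on 31 UMIs).

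Cyb5a, which lies on the plus strand at chr18:84838704-84879871 (GRCm38), leaned opposite ways with cycling in the 2 lines. It had 298 CPM in cycling and 232 CPM in non-cycling B16F10 cells, a log2 ratio of 0.36 (0.30 to 0.42), but 1021 CPM in cycling and 1178 CPM in non-cycling B16F0 cells, a ratio of -0.21 (-0.22 to -0.19). Both are below 1.5-fold, and the difference between the lines was not tested. Bfsp2 was lower in cycling cells of both lines, with log2 ratios of -0.39 in B16F10 and -0.30 in B16F0, as was Fam174b with -0.46 and -0.39.

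When cells of the same cluster were compared, 4 genes were 2-fold or more lower in B16F10, and Rad54l was close to equal in C4 and too low in C3 for a call. In C3 the B16F10/B16F0 log2 ratios were -2.54 for Fam178b, -2.42 for Bfsp2, -2.47 for Cyb5a and -1.92 for Fam174b. In C4 they were -2.59, -2.98, -2.78 and -1.995 for the same genes. These 4 of 5 genes were at least 2-fold lower in both clusters, beside 2.2% of all genes in C3 and 5.01% in C4. The cells are part of those whose ratio chose the genes, so nothing is read from these counts. Rad54l had a ratio of -0.58 (-1.17 to -0.03) in C3, on 35 UMIs in B16F10 and 121 in B16F0 and at levels under the minimum of 20 CPM, an interval that includes 2-fold lower. It had 0.27 (-0.02 to 0.55) in C4, an interval that includes 0. Over C3 and C4 together its ratio was -0.04, against -1.93 over all cells.
Rad54l was therefore lower in B16F10 over whole libraries, and most of its B16F0 UMIs lay in C1 and C2, clusters with 7 and 4 B16F10 cells and 816 and 644 B16F0 cells. The 7 B16F10 cells in C1 had 7.04 CPM of Rad54l (0.853 to 25.4, on 2 UMIs). The 4 in C2 had 28.9 CPM (7.86 to 73.9, on 4 UMIs). Fewer cells of such a kind and less Rad54l RNA per cell both lower a library's sum, and the clusters separate them only as far as they were made without Rad54l.

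**Figure D3:**
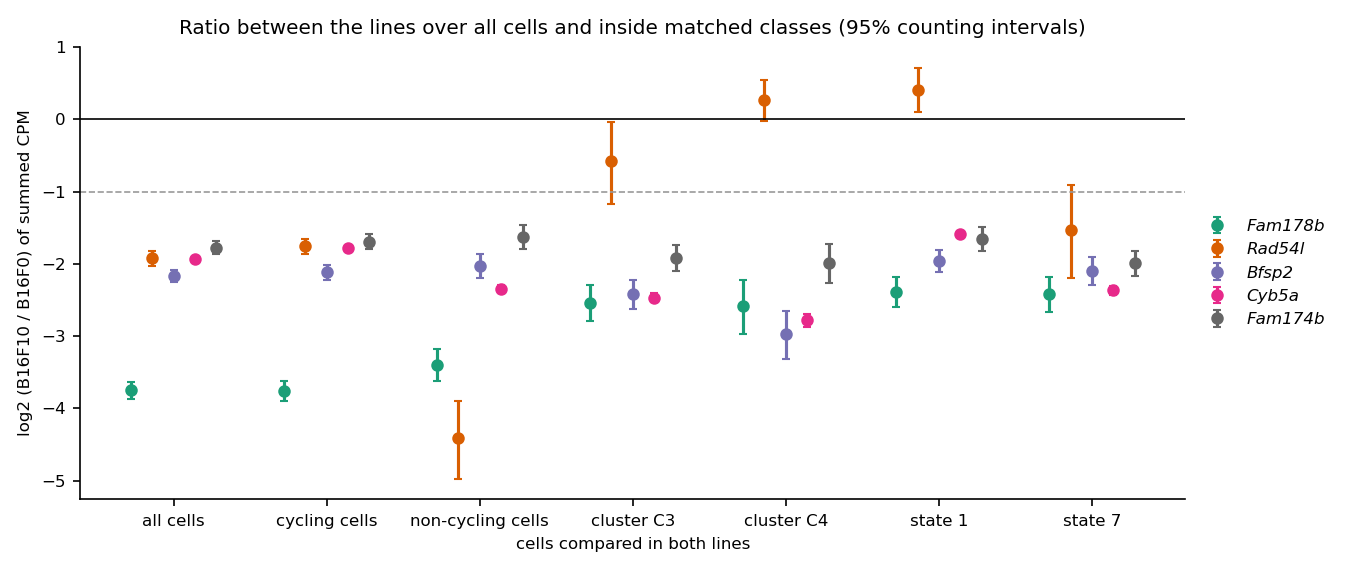
B16F10/B16F0 log2 ratios of the 5 genes over all cells and within cycling cells, non-cycling cells, cluster C3, cluster C4, state 1 and state 7; bars are 95% intervals of counting error, the line at 0 marks equal levels and the dashed line 2-fold lower. Rad54l lies at 0.27 in C4 and 0.40 in state 1, but at -4.41 in non-cycling cells, and the other 4 genes lie below -1.5 throughout.

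By trajectory state, too, 4 of the 5 genes were lower in B16F10 in both states that the lines shared. State 1 held 1254 B16F10 and 165 B16F0 cells, state 7 held 319 and 454, and states 2, 4, 5 and 6 (186, 547, 659 and 569 cells) were B16F0 but for 1 B16F10 cell. In state 1 the line ratios were -2.39 for Fam178b, -1.96 for Bfsp2, -1.59 for Cyb5a and -1.66 for Fam174b, and in state 7 they were -2.42, -2.10, -2.36 and -1.99. Again 4 of 5 genes were at least 2-fold lower, beside 1.77% of all genes in state 1 and 1.62% in state 7, which the choice of the genes by the same cells' ratio leaves as a description. Rad54l had 20.5 CPM in B16F10 and 15.5 CPM in B16F0 in state 1, a ratio of 0.40 (0.10 to 0.72), and 2.63 CPM and 7.58 CPM in state 7, a ratio of -1.53 on 27 and 114 UMIs. The state 7 levels were under the minimum of 20 CPM for a call.
Across the B16F0 states, Rad54l had 63.9 CPM in state 2, 87.0 in state 4, 74.95 in state 5 and 90.8 in state 6, all above states 1 and 7, and Fam178b had 103, 149, 167 and 211 CPM in the same order. Fam178b had 51.4 CPM in state 1 and 85.8 CPM in state 7 of B16F0, the lowest of the line, as for Rad54l. Fam174b peaked in state 7 of B16F0, at 116 CPM, and lay between 55.5 and 85.6 CPM in the other 5 states. Bfsp2 and Cyb5a varied less, between 85.7 and 121 CPM and between 893 and 1205 CPM.

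By cycling class, all 5 genes were at least 2-fold lower in B16F10 among cycling cells (1.54% of all genes) and among non-cycling cells (1.85%); these are the cells whose ratio chose the genes, so nothing is read from the counts. Fam178b had line ratios of -3.76 in cycling and -3.40 in non-cycling cells, Bfsp2 -2.12 and -2.03, Cyb5a -1.78 and -2.35, and Fam174b -1.69 and -1.62. Rad54l had -1.76 in cycling cells and -4.41 (-4.97 to -3.90) in non-cycling cells, where it had 2.78 CPM (31 UMIs) in B16F10 and 59.1 CPM (2434 UMIs) in B16F0. The non-cycling classes differ in makeup, since 597 of 1171 non-cycling B16F0 cells were in C1, a cluster with 5 non-cycling B16F10 cells.

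A first clustering in the authors' table names cells F10 or F0, and 121 B16F0 cells carry the name of the other line. Those 121 cells, set against the 2461 B16F0 cells named F0, had 17.1 and 67.7 CPM of Rad54l (log2 ratio -1.98, rank 5209 of 5211 genes), 59.7 and 151 CPM of Fam178b (-1.34) and 67.3 and 102 CPM of Bfsp2 (-0.60). These 3 of 5 genes were at least 1.5-fold lower, as were 4.49% of all genes. Cyb5a (-0.40) and Fam174b (-0.21) did not reach that fold. The genes were chosen for low levels in B16F10, whose name the 121 cells carry, so nothing is read from the count. Of the 121 cells 86.8% were cycling, against 53.1% of the B16F0 cells named F0. For Fam178b, Bfsp2, Cyb5a and Fam174b the 121 cells stayed well above the B16F10 library, and for Rad54l they were at its level, 17.2 CPM.
Among B16F10 cells, the 1531 named F10 had 10.7 CPM of Fam178b and 22.0 CPM of Bfsp2, against 22.1 and 35.4 CPM in the 43 named F0, which made 2 of 5 genes 1.5-fold lower beside 4.09% of all genes. Nothing is read from that count either.

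In single B16F0 cells co-occurrence was strongest for Fam178b with Rad54l. After thinning, 49.6% of 2323 B16F0 cells held both, against 45.5% for the product of their separate shares, a ratio of 1.09 with a Pearson correlation of 0.32 over cells. Rad54l was seen in 28.8% of the 378 B16F0 cells without Fam178b, 47.1% of the 854 cells with 1 to 2 Fam178b UMIs, 65.5% of the 727 cells with 3 to 5 and 75.3% of the 364 cells with 6 or more. The share with Rad54l was thus higher at each step of Fam178b. Within C1 and C2 together (1296 cells) the ratio was 1.001 and the correlation -0.0011, and within C3 and C4 (1015 cells) they were 0.979 and -0.012. The pairing was thus not seen within either pooled pair of clusters. In C1 and C2, 95.1% of cells held Fam178b, which leaves the ratio little room above 1. Single clusters were not examined, and the clusters may have been made with these genes. The pairing was present at 1.08 (r = 0.32) in cycling and 1.11 (r = 0.36) in non-cycling B16F0 cells. In B16F10, 4.39% of cells held both genes against 4.34% for the product, a ratio of 1.01 with a correlation of -0.02. Those correlations describe cells of 1 library that share depth after thinning, and they have no p-value.

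By correlation in B16F0 the other pairs were weaker and of both signs. In B16F0, Cyb5a and Fam174b had a correlation of 0.22 and Bfsp2 and Cyb5a 0.11. Rad54l went against Cyb5a (-0.16) and against Fam174b (-0.15, with 0.933 times the product), and Fam178b had -0.11 with each of them. In B16F10, Fam178b and Bfsp2 were seen together in 5.73% of cells against 4.43% for the product (1.29, r = 0.11).
All 5 transcripts were seen in 615 thinned B16F0 cells, 26.5%, where the product of the 5 shares gives 26.3%, and at least 4 of them in 70.8%, where independent shares give 70.2%. In B16F10, 8 cells (0.533%) held all 5, against 0.348% for the product. In C1 and C2 of B16F0 42.0% held all 5 and in C3 and C4 6.90%, against products of 42.0% and 7.64%. None of the 5 was seen in 21 B16F10 cells (1.40%) and in 0 of 2323 B16F0 cells, which allows a share of up to 0.129%. The observed shares in B16F0 lay close to what the separate shares give.

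**Figure D4:**
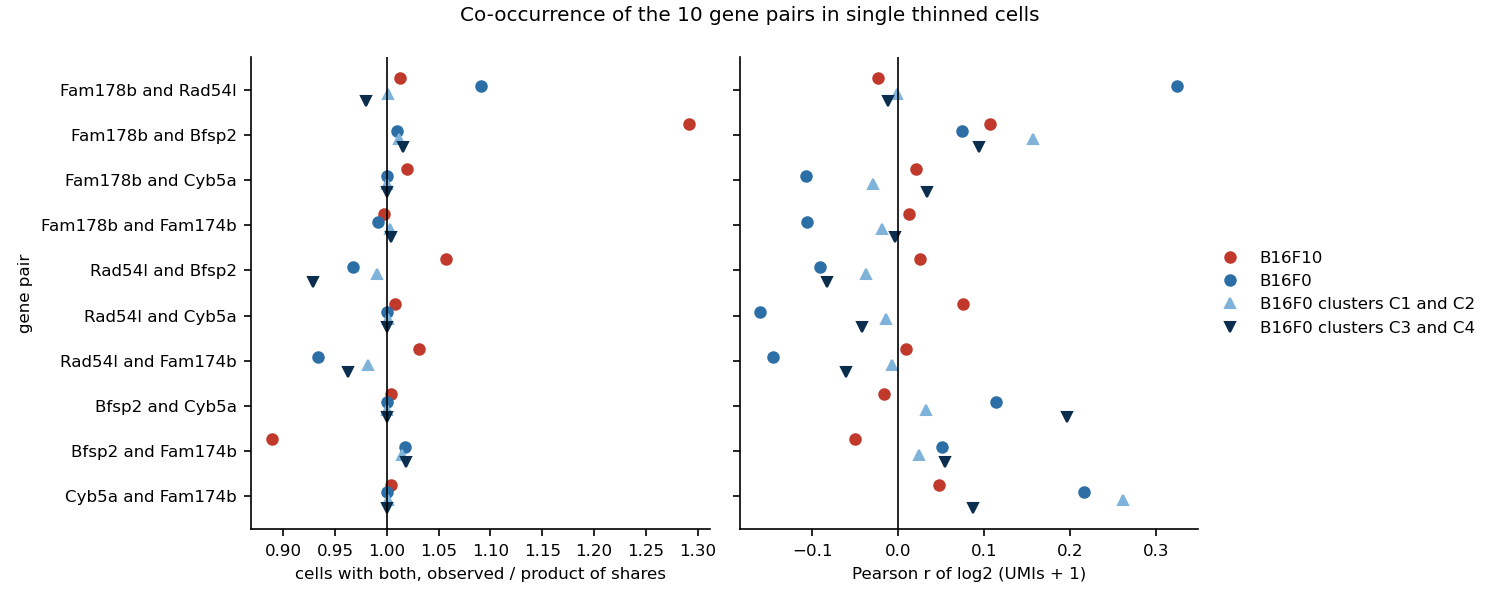
For the 10 pairs of the 5 genes in thinned cells, the share of cells with both divided by the product of the separate shares (left) and the Pearson correlation of log2 (UMIs + 1) (right), in B16F10, in B16F0 and in B16F0 cells of clusters C1 and C2 and of C3 and C4. The Fam178b and Rad54l correlation of 0.32 in B16F0 is at -0.0011 and -0.012 inside the 2 pairs of clusters.

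The genes most like each of the 5 over single B16F0 cells fell on different sides. Of 5081 candidate genes, Fam178b was most like Mbp (r = 0.41), Arpc1b, an Arp2/3 actin nucleation subunit (0.39), and Rad54l (0.32). Rad54l was most like Mbp (0.39), Cox7c, a cytochrome c oxidase subunit (0.36), and the fatty acid binding protein gene Fabp5 (0.36), and it ran against Tyr (-0.42). Mbp had 45.5 CPM in B16F10 and 171 CPM in B16F0, where its 4 clusters had 270 (C1), 209 (C2), 89.4 (C3) and 70.6 CPM (C4), an order shared with Fam178b.
Cyb5a was most like 3 pigment genes: Mlana (0.59), Pmel, the melanosome matrix protein (0.49), and Dct, dopachrome tautomerase (0.47). Fam174b was most like the prostaglandin D synthase gene Ptgds (0.32), Syngr1 (0.30) and the melanocyte channel gene Trpm1 (0.30). Bfsp2 had its highest values with the ubiquitin gene Ubb (0.23), the tetraspanin gene Cd81 (0.22) and Atp5b, an ATP synthase subunit (0.21), all weak.

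Pigment genes leaned with Cyb5a and Fam174b and against Rad54l between the B16F0 clusters. Of 15 measured pigment genes, 6 were at least 1.5-fold lower in C1 than C3 (5.47% of all genes) with a median log2 ratio of -0.58, and 6 were lower in C2 than C4 (5.46%). Between the lines, 3 were higher and 5 lower in B16F10 (11.3% and 6.14% of all genes at the same fold of 1.5), with a median of -0.01. The 3 higher were Mitf (0.86), Mc1r (0.73) and Tyrp1 (0.69). Among the 5 lower were Tyr (-1.74), Trpm1 (-1.22) and Cd63 (-1.22).

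Lists of genes from the pathways around the 5 were counted at 1.5-fold between the lines, which 11.3% of all 7425 genes with 10 CPM or more passed upwards and 6.14% downwards in B16F10. Of 25 recombination genes with 10 CPM or more, 4 passed 1.5-fold upwards in B16F10 and 0 downwards, with a median log2 ratio of 0.31 (Exo1 0.87, Brca1 0.50, Rpa1 0.39), where the median of all genes was 0.13. Of 9 genes of the SMC5/6 complex and its partners, 0 passed in either direction (Nsmce4a 0.46, Slf2 0.42, Smc6 0.31). Of 17 genes of cytochrome b5 electron transfer and its users, 2 were lower and 0 higher, with a median of -0.13: the heme oxygenase gene Hmox1 (-1.45) and the b5 reductase gene Cyb5r2 (-1.003) were lower, and Cyb5b had -0.45. Of 9 intermediate filament and lens genes, 2 were higher and 2 lower, with nestin (Nes, -0.94) and vimentin (Vim, -0.86) lower and lamin B1 (Lmnb1, 0.85) among the higher.
Cell cycle lists were higher in B16F10, in which 78.1% of cells were classed as cycling against 54.6% in B16F0. Of 32 S phase genes 11 were higher and 0 lower (Rrm1 1.18, Rrm2 0.96, Uhrf1 0.92), and of 18 G2/M genes 8 were higher and 0 lower (Cenpe 1.09, Kif23 1.02, Kif11 0.86). Rad54l, which was higher in cycling cells of both lines, was lower in the line with more of them.

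Close relatives of the genes differed less between the lines. Slf2, the relative of Fam178b, had 20.7 CPM in B16F10 and 15.5 CPM in B16F0, and its partner Slf1 had 18.1 and 18.4 CPM. Rad54b, the second Rad54 translocase gene, had 4.92 and 2.94 CPM, a log2 ratio of 0.74. Cyb5b, the cytochrome b5 of the outer mitochondrial membrane, had 138 and 189 CPM (-0.45), and Fam174a 44.3 and 66.6 CPM (-0.59). None stood 2-fold lower. Bfsp1, the filament partner of Bfsp2 in the lens, was not among the 14959 genes counted.

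As over all genes, few of the genes near the 5 on the chromosome were 2-fold lower in B16F10. Up to 10 genes with 10 CPM or more were taken on each side. They lay as far as 7.66 Mb away (near Fam174b), and Cyb5a had only 3 on its right. Among these 93 genes, 1 was at least 2-fold lower in B16F10 (1.82% of all genes) and 4 were at least 2-fold higher (1.64%). The lower one was Mbp, 2.36 Mb from Cyb5a, with a log2 ratio of -1.91. The higher ones were Kansl3 (1.12), Tmem131 (1.05) and Coa5 (1.10) near Fam178b and Ticrr (1.15) near Fam174b.
The immediate neighbours reported here lay between -0.31 and 0.54: Ankrd39 (0.29) and Cox5b (0.34) beside Fam178b, Lrrc41 (0.44) and Pomgnt1 (0.54) beside Rad54l, and Cdv3 (0.26) beside Bfsp2. Cndp2 (0.18) and Timm21 (-0.13) flanked Cyb5a, and Chd2 (0.27) and Slco3a1 (-0.31) flanked Fam174b. Around Fam178b 19 of 20 neighbours had ratios above 0 (62.8% of all 7425 genes did) with a median of 0.56, the opposite direction to Fam178b itself, while the medians around the other 4 genes lay between 0.04 and 0.29. Around Rad54l the ratios ran between -0.94 and 0.95.

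**Figure D5:**
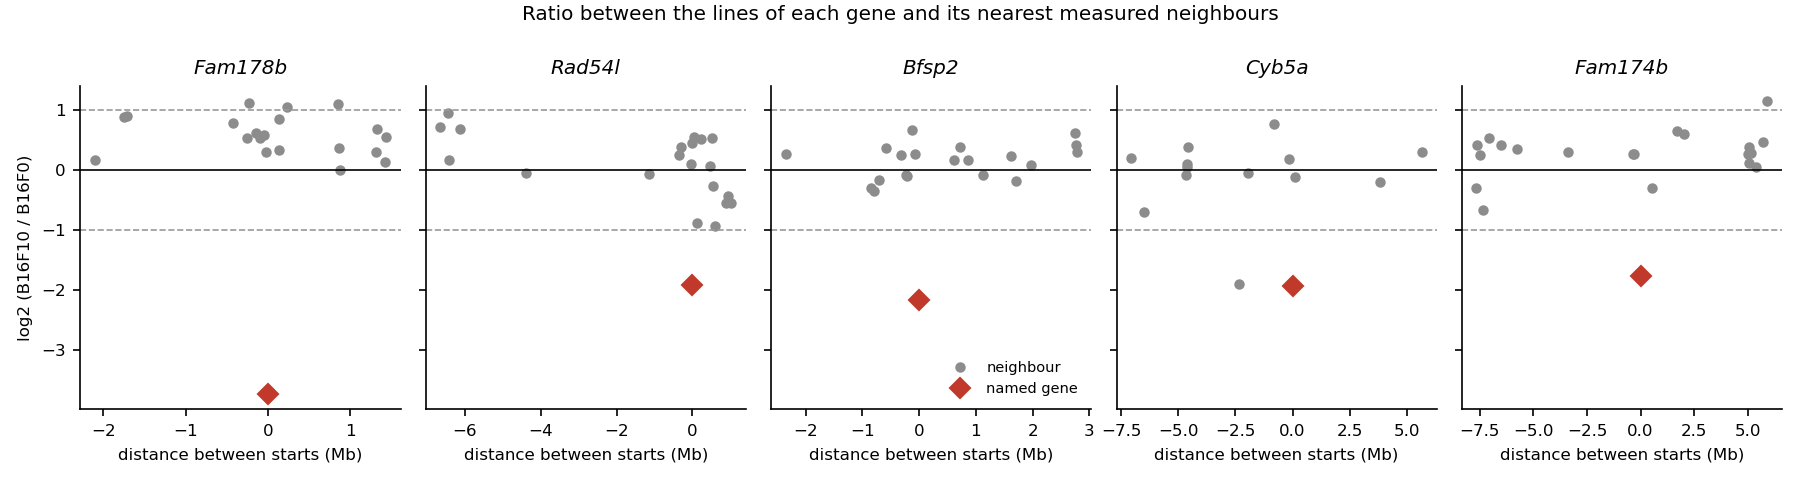
B16F10/B16F0 log2 ratios of the 5 genes (diamonds) and of their nearest measured neighbours (grey points), by distance between gene starts in Mb; dashed lines mark 2-fold. Each diamond stands below its immediate neighbours, and Mbp at -1.91, near Cyb5a, is the 1 neighbour below the lower dashed line.

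Along the authors' pseudotime, cut into 5 groups of about equal numbers of B16F0 cells, Rad54l went with cluster makeup and not with order. It had 90.4, 52.7, 70.4, 86.7 and 23.8 CPM in groups 1 to 5 in order of pseudotime, while C3 and C4 made up 20.5%, 57.0%, 30.2%, 23.6% and 83.4% of the cells. Fam178b had 154, 95.4, 170.1, 210 and 105 CPM, with the same low groups. Cyb5a was higher at each step, at 976, 996, 1109, 1133 and 1259 CPM, and Fam174b was highest in group 5, at 112 CPM, with 58.8 CPM in group 1. The share of cycling cells ran down the same axis, with 100% in group 1 and 2.51% in group 5.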

How the data were processed

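Single-cell 3′ libraries of B16F10 and B16F0, 1 each, were made with the 10x Chromium v2 kit, as the labels' protocols state. The submitters' processing notes name Seurat 3.0, Cell Ranger 3.0.0 and the build mm10, with no roles. No source used here gives strand use, the treatment of multi-mapped reads or the filters on cells. Deposited by the authors were raw UMI counts for 14959 genes in 4156 cells, natural log values (not used), and a table of classes with S and G2/M scores and a pseudotime score per cell. Both matrices were also present as identical copies, which were not used.

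Counts were summed per group of cells and divided by the group's total (CPM). Intervals are 95% exact intervals: Poisson for CPM, binomial for log2 ratios and Clopper-Pearson for shares of cells. UMIs limit PCR duplicates, and the intervals cover counting error only. Where 0 cells were found, the upper limit given for the share was 3 divided by the number of cells, not a Clopper-Pearson limit. Calls needed 20 CPM in the higher group (10 CPM for lists and neighbours) and a 2-fold line difference, or 1.5-fold for classes and lists. With 1 library per line no test was run. Cells were thinned to 19718 UMIs, the lower of the lines' 10th percentiles. All deposited cells were kept, no doublet caller was run, and 6 barcodes occurred in both libraries. Gene symbols were matched to GRCm38 annotation (GENCODE M21) for 14751 genes (98.6%).

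The 5 genes and the gene lists were chosen with earlier results of these data known. Other genes were named by rule: for each of the 5 the 3 most correlated genes over single B16F0 cells and over groups of cells, the nearest neighbours and any neighbour 2-fold lower, the 3 genes of each list with the largest absolute log2 line ratio at 20 CPM or more, and paralogues; a few genes under this rule are not reported here. Tyr as the gene outside the choice, Mnd1, Rpa2, Gen1, Bard1, Blm and Mc1r were named after their values were seen. So were the ratios of single melanocyte lineage markers, Rad54l's overlapping gene, Fgd2's level and the neighbours that were 2-fold higher. Scaling (edgeR 4.0.16 TMM, DESeq2 1.42.0 size factors), CPM minimum, cell subsets and thinning depth were varied. R 4.3.3 and Python 3.11.15 were used, with matplotlib 3.10.9, pandas 2.3.3, scipy 1.17.1 and numpy 2.4.6, and the computations were tested on simulated data.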

Additional observations from a re-analysis of the deposited data

Results flagged for a closer look

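The Rad54l line difference had opposite signs in the 2 trajectory states that held both lines. The B16F10/B16F0 log2 ratio was 0.40 in state 1 (20.5 and 15.5 CPM) and -1.53 in state 7 (2.63 and 7.58 CPM), and neither interval included 0. State 1 was mostly cycling B16F10 cells and state 7 held the low Rad54l levels of both lines. The difference between the states was not tested.

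Cyb5a leaned opposite ways with cycling in the lines. The cycling/non-cycling log2 ratio was 0.36 in B16F10 and -0.21 in B16F0, again with neither interval including 0, and the difference between the lines was not tested.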

How the results depend on the processing

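With 1 library per line there is no replicate to leave out, and intervals give counting error alone. No paired analysis was possible because each line has 1 library. Of 198 recomputed values, 155 stayed within the spread allowed, 43 moved and 0 reversed. Only log2 ratios could be labelled reversed, since counts and the co-occurrence ratio could only stay or move. State 1, where the Rad54l line ratio was 0.40, was not among the settings. The log2 line ratio lay between -3.85 and -2.53 for Fam178b, -2.58 and -2.03 for Bfsp2, -2.56 and -1.78 for Cyb5a, -1.91 and -1.62 for Fam174b, and -4.41 (non-cycling cells) and -0.04 (C3 and C4 alone, chosen after seeing the data) for Rad54l; TMM and DESeq2 scaling each moved the median of all genes by -0.10. Genes at least 2-fold higher in B16F10 numbered 81, against 127 in non-cycling cells, 129 in C3 and C4, and 122, 32 and 998 with a minimum of 10 CPM, 50 CPM or none. Genes at least 2-fold lower numbered 85, against 146 in C3 and C4, and 135, 49 and 1396 with those minimums. The Fam178b and Rad54l co-occurrence of 1.09 was 1.001 within C1 and C2 and 0.979 within C3 and C4. With 20 neighbours on each side, 2 were lower instead of 1. Recombination genes higher in B16F10 numbered 1 at 20 CPM and 8 with no minimum instead of 4. Cytochrome b5 genes lower numbered 4 with no minimum instead of 2. Filament and lens genes higher numbered 1 at 20 CPM and 1 under TMM instead of 2, and those lower 5 with no minimum instead of 2. The cause of these shifts was not tested, beyond the fewer or other genes and cells that each setting holds. Depth limits Rad54l in C3 and state 7 and the low tail of the lists.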

Other observations

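Over 11 groups of cells (line by first clustering and line by trajectory state, which share cells), Fam178b was most like Fgd2 (r = 0.99), at 1.07 CPM in B16F10 and 47.2 CPM in B16F0, Pcbd2 (0.99) and Trappc2l (0.99). Rad54l was most like Ccdc124 (0.98), Cd320 (0.97) and Mef2c (0.97). Bfsp2 was most like Cd63 (0.996), Mgst1 (0.99) and Usp6nl (0.99), Cyb5a like Nob1, Usp6nl and Nudt9 (0.99 each), and Fam174b like Pkib (0.99), Lyplal1 (0.98) and B2m (0.98). The groups overlap and separate mostly by line, so these values describe the groups and have no p-value.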
